A study of Mus musculus with 9 samples.

Results

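The collagen gene family was taken as every gene of the count table whose symbol reads Col, a number, the letter a and a number, in Ensembl release 100 or GENCODE M21. This rule found 44 of 55450 genes. Of the 44, 35 passed edgeR's filter on low counts, beside 19357 genes in all, and the other 9 had at most 12 counts in any library. RNA sequencing was done on 9 libraries of EYFP+ cells from the mammary glands of adult nulliparous mice, with 3 libraries for each of 3 genotypes. The control genotype was lsl-EYFP;K8CreERT2. The genotype called LATS1/2-KO here carried LATS1/2f/f in addition, and the genotype called LATS1/2-Sox9-KO carried both LATS1/2f/f and Sox9f/f in addition. All 3 genotypes carry the tamoxifen-inducible Cre driven by the Krt8 promoter, which is active in luminal cells, and the EYFP reporter that Cre switches on. All mice, the controls included, received 2 mg of tamoxifen on 5 days by intraperitoneal injection, and glands were taken 7 days after the last dose. Cells were sorted as live and EYFP+, so EYFP marks the cells in which Cre was active and their descendants. The number of mice behind each library is not given in the sources used here, so p-values measure the spread between these libraries. Values listed by library follow the order of replicates 1, 2 and 3 of a group throughout.

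Total counts ranged from 44167762 to 47003587 in the control libraries, from 50508666 to 61745346 in those labelled LATS1/2-KO and were 55503365 to 61967651 for LATS1/2-Sox9-KO. A normalized count is a count scaled by the trimmed-mean (TMM) library size to the mean of the 9 libraries. A level in TPM is a count per length of the gene's exons, scaled to the same total in every library, and only TPM was used to compare genes with one another. The luminal keratin Krt18 was the most abundant luminal marker in every group, at a mean of 10877 TPM in control, 17078 TPM in LATS1/2-KO and 27133 TPM in LATS1/2-Sox9-KO. The targeted gene Lats1 had normalized counts of 5672, 5928.5 and 5940.4 in the control libraries, 2090.1, 1923 and 2336 in those labelled LATS1/2-KO and 2058, 1844 and 1709 in those labelled LATS1/2-Sox9-KO. It was lower in all 6 libraries of both floxed genotypes (log2 fold change -1.47, SE 0.11, adjusted p = 7.07e-06 for LATS1/2-KO against control). Lats2 had normalized counts of 1039, 865 and 1219.7 in the control libraries, 1256, 1434 and 1723 in those labelled LATS1/2-KO and 1957, 1580.4 and 1239.7 in those labelled LATS1/2-Sox9-KO, and was not lower in either (log2 fold change 0.50, SE 0.20, adjusted p = 0.0571 for LATS1/2-KO, and log2 fold change 0.61, SE 0.20, adjusted p = 0.024 for LATS1/2-Sox9-KO against control). Sox9 had normalized counts of 23313, 19948 and 21534 in the control libraries, 7205, 9506 and 12433 in those labelled LATS1/2-KO and 8812, 6756 and 6459.8 in those labelled LATS1/2-Sox9-KO. It was lower than control in both floxed genotypes, and between these the libraries overlapped (log2 fold change -0.40, SE 0.19, adjusted p = 0.25). A gene count also holds reads from exons outside the floxed ones, so these counts do not test the deletions, and the names LATS1/2-KO and LATS1/2-Sox9-KO stand throughout for the libraries so labelled.

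Collagens are secreted or membrane-bound proteins in which 3 chains wind into a triple helix, and this needs a glycine at regular spacing along each chain, the Gly-X-Y repeat. Fibrillar collagens assemble into the fibrils of connective tissue, type IV collagens form the network of basement membranes, and FACIT collagens sit on the surface of fibrils. In the mammary gland, luminal cells line the duct, myoepithelial cells surround them and contact the basement membrane, and fibroblasts of the stroma make most fibrillar collagen. LATS1 and LATS2 are kinases of the Hippo pathway that restrain the co-activators YAP and TAZ, which act through TEAD factors, and SOX9 is known in cartilage as an activator of type II, IX and XI collagen genes.

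The classes differ in how their Gly-X-Y repeat is laid out, which was read from the GENCODE M21 coding sequences as runs of at least 5 triplets that each open with a glycine codon. The 11 fibrillar genes had 2 to 3 runs each, with a longest run of 216 to 344 triplets. The 6 type IV genes had 22 to 27 runs, with a longest run of 39 to 66 triplets. The 9 FACIT genes had 2 to 21 runs and a longest run of 32 to 113 triplets. A stretch of each pattern is shown, 5′ to 3′, with glycine codons in capitals. Codons are counted from the start codon.
Col1a1, codons 168 to 191: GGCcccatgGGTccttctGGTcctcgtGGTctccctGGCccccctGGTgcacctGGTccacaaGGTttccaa
Col4a1, codons 212 to 235: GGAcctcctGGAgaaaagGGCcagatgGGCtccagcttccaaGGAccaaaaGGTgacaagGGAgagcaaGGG
In Col1a1 glycine codons follow each other at a constant spacing over the whole stretch, which opens a run of 338 triplets. In Col4a1 the spacing is broken in the middle of the stretch, where a run of 17 triplets ends.

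Some collagen genes stand as neighbours that share their start region. Sequences of start regions are RefSeq's on GRCm38.p6. Col4a1 and Col4a2, the chains of the widespread basement membrane network, lie head to head on chromosome 8 with first exons that overlap by 22 bases, and Col4a4 and Col4a3, of the specialised network of kidney and lung, lie head to head on chromosome 1 with 71 bases between them. Col4a6 and Col4a5 lie head to head on chromosome X with 1308 bases between them. The shared or intervening bases of the first 2 pairs are shown because both chains of the first pair rose in LATS1/2-KO and only 1 chain of the second did.
Col4a1/Col4a2 overlap, chr8:11312805-11312826, plus strand: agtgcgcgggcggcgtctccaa
Col4a4/Col4a3 gap, chr1:82586850-82586920, minus strand: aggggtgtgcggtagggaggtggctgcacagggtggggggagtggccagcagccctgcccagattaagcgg
The 100 bases before the 2 RefSeq starts of Col9a1 and before that of Col9a2 are shown because these genes had 2 of the 3 largest decreases among collagens between the 2 floxed genotypes. Capitals mark the letters CCAAT, known as the CCAAT box, which 1 of the 3 stretches holds.
Col9a1, upstream start, chr1:24177510-24177609, plus strand: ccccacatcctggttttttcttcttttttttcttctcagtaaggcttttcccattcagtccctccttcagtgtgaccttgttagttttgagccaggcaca
Col9a1, downstream start, chr1:24195103-24195202, plus strand: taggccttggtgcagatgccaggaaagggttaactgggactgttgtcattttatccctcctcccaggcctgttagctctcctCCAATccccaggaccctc
Col9a2, chr4:121039466-121039565, plus strand: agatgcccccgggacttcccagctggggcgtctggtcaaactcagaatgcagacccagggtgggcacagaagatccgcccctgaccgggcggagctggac
Windows of 300 bases, from 250 before to 50 after a start, were listed for 35 of the 44 collagen genes (38 windows) and for 32851 starts in all. The motifs were counted on both strands. CATTCC or GGAATG, which TEAD factors bind, was found in 13.2% of collagen windows and 14.7% of all windows. ACAAAG or CTTTGT, which SOX factors bind, was found in 13.2% and 18.7%. TGANTCA, which AP-1 binds, was found in 2.6% and 7.8%, and CCAAT or ATTGG in 34.2% and 37.4%. The collagen windows had a median GC content of 59.8%, against 52.7% for all windows.

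Between LATS1/2-KO and control, collagen expression shifted in both directions. At an adjusted p of at most 0.05 and a change of more than 2-fold, 16 of the 35 tested collagens were higher, where 17.1% of all 19357 genes were, and 4 were lower, where 17.5% of all genes were (edgeR's quasi-likelihood test, Benjamini-Hochberg adjusted over all genes tested). At the adjusted p alone, 16 rose and 5 fell, against 28.7% and 27.1% of all genes. Libraries did not overlap for 16 that were higher and 6 that were lower, as for 31.3% and 30.3% of all genes. The median log2 fold change of the 35 was 0.43, and that of all genes tested was 0.04. The increases were in fibrillar collagens (8 of 10 tested), type IV (3 of 6), both multiplexins, Col7a1, Col6a2 and Col12a1. The called decreases were Col6a3, Col11a2, Col16a1 and Col20a1. In bulk libraries, more cells of a type and more RNA per cell cannot be told apart.

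Between LATS1/2-Sox9-KO and control, with the same control libraries, 14 of the 35 were called higher (17.8% of all genes) and 13 called lower (19.6% of all genes), and the counts were the same at the adjusted p alone (29.3% and 28.7% of all genes). Libraries did not overlap for 14 higher and 13 lower (34.9% and 33.8% of all genes). The median log2 fold change was -0.18, and 0.01 over all genes. Fibrillar collagens had 7 members higher and 1 lower, and FACIT collagens 1 higher and 5 lower. Values of the 2 comparisons with control are set side by side below, since they share the control libraries.

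Setting LATS1/2-Sox9-KO directly against LATS1/2-KO asks what the additional floxed Sox9 alleles go with. No collagen was higher in LATS1/2-Sox9-KO (1.55% of all genes were, and 3.13% at the adjusted p alone) and 6 were called lower (2.16% of all genes): Col9a1, Col9a2, Col8a2, Col27a1, Col11a1 and Col18a1. The count of 0 higher was also 0 at an unadjusted p under 0.05 and by DESeq2's Wald test. At the adjusted p alone 7 fell, with Col4a6 in addition, where 3.33% of all genes fell. Of the 35, 29 had a lower estimate, and the median log2 fold change was -0.61, against -0.02 over all genes. Libraries did not overlap for 11 collagens that were lower (13.3% of all genes) and 0 that were higher (14.6%). These calls depended on single libraries. The number called lower was 0 without LATS1/2-KO replicate 3 or without LATS1/2-Sox9-KO replicate 2, and 2 without LATS1/2-Sox9-KO replicate 3 (Col9a1 and Col9a2). Without LATS1/2-Sox9-KO replicate 1 it was 3, of which Col8a2 was 1 of the 6, while Col14a1 at -2.0 (adjusted p = 0.0299) and Col16a1 at -1.69 (adjusted p = 0.0449) were not. Of all genes, 0.783%, 0.388%, 1.04% and 1.10% were called lower in these 4 fits. Without LATS1/2-KO replicate 1 the count lower was 7 (2.88% of all genes), with Col23a1 at -1.83 (adjusted p = 0.0456) and Col4a3 at -2.43 (adjusted p = 0.0297) added and Col27a1 lost, and Col1a1 passed as higher at 1.57 (adjusted p = 0.0177). DESeq2 called 12 (2.38% of the 31522 genes it fitted without the filter on low counts, a wider set than the 19357). A test against a 2-fold change, glmTreat, called 0 (0.0723% of all genes).

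**Figure D1:**
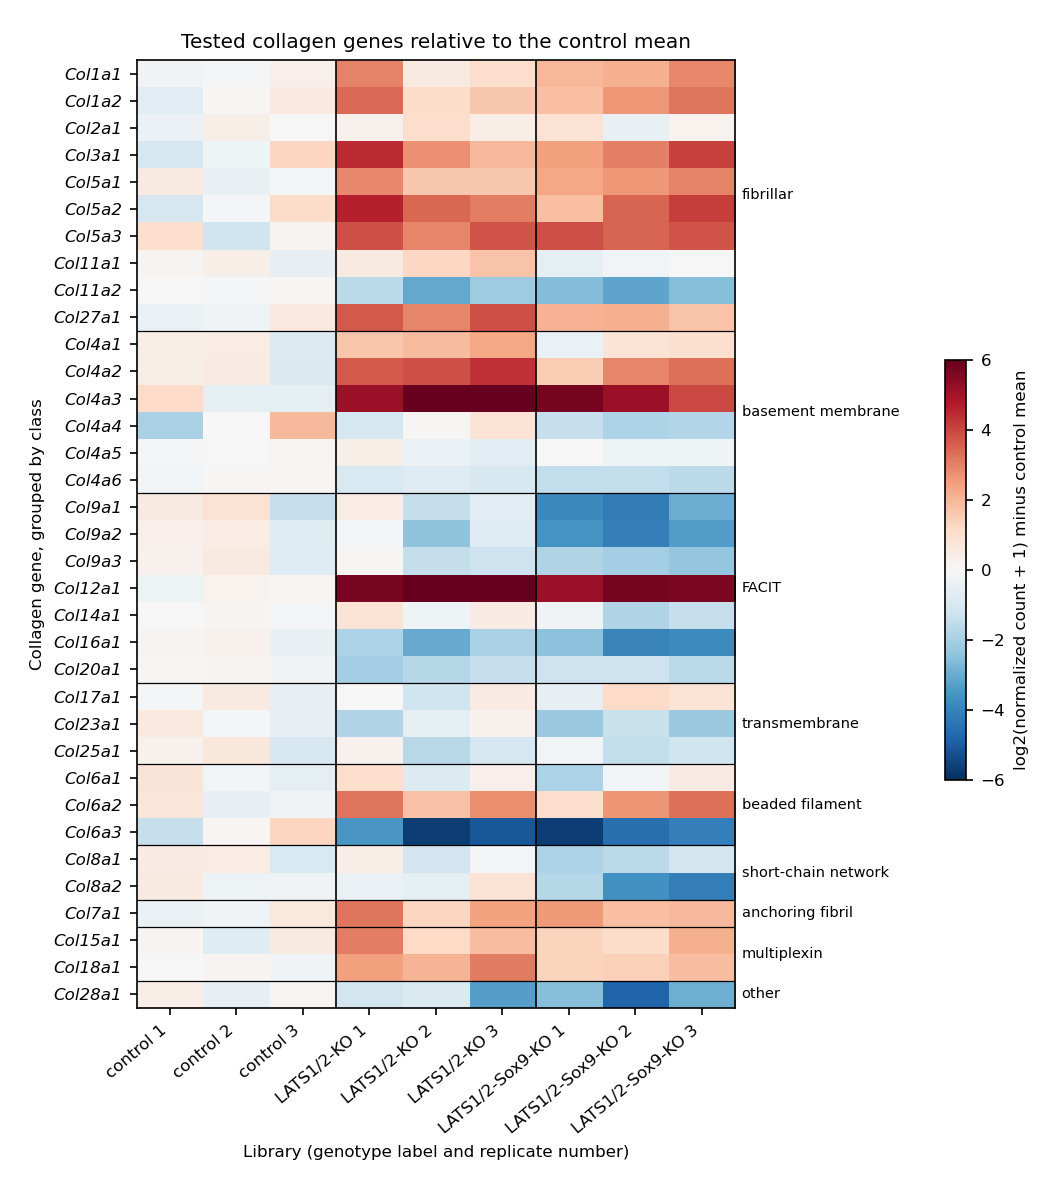
Each row is 1 of the 35 tested collagen genes, grouped by class, and each column a library. Colour is log2(normalized count + 1) minus the mean of the 3 control libraries, with values beyond 6 in either direction drawn at the end of the scale. Col12a1 and Col4a3 are dark red in all 6 libraries of the floxed genotypes, Col6a3 is blue in the same 6, and Col9a1, Col9a2 and Col8a2 are blue in the 3 LATS1/2-Sox9-KO libraries.

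In total level, the 44 collagens summed to 313, 353 and 306 TPM in the control libraries, to 506, 329.5 and 409 TPM in those labelled LATS1/2-KO and to 212, 244.5 and 289.7 TPM in those labelled LATS1/2-Sox9-KO. In TPM the LATS1/2-Sox9-KO libraries were all below the other 6, and the LATS1/2-KO libraries overlapped those of control. Normalized counts scale the libraries differently. Col4a5, for example, averaged 62.6 TPM in LATS1/2-Sox9-KO and 81.7 in control, but 7721 and 8724 normalized counts. The order of the sums did not hold on that scale. Summed over the 44, normalized counts were higher in LATS1/2-Sox9-KO replicates 2 and 3 than in control replicate 1. Col12a1, a long gene, had 14450.4 and 13764 in those 2 libraries and 216 in that control. With 3 libraries against 3, an exact two-sided permutation test cannot go below p = 0.1, so no test is given for such sums. Fibrillar collagens took 4.74, 4.61 and 6.03% of the collagen TPM in control, 15.2, 8.21 and 7.55% in LATS1/2-KO and 11.8, 13.6 and 19.6% in LATS1/2-Sox9-KO, with no overlap between control and either. Basement membrane collagens were the largest class in every library, at 37.4% to 49.3% of the total. Short-chain collagens took 18.3, 14.6 and 7.81% in control and 4.60, 4.09 and 4.77% in LATS1/2-Sox9-KO. In control the order of single chains by mean TPM began with Col4a5, at 81.7 ± 6.22 (SD, n = 3), Col4a6, at 51.01 ± 4.81, Col8a1, at 35.8 ± 16.3, and Col6a3, at 29.9 ± 23.5. Col8a1 and Col6a3 did not differ beyond their spread. Col4a6 and Col8a1 overlapped as well, at 45.46 and 45.75 TPM in control replicate 1. In LATS1/2-KO it began with Col4a5, at 70.98 ± 28.7, Col12a1, at 68.3 ± 11.9, Col4a1, at 36.8 ± 8.35, and Col4a2, at 34.2 ± 8.79, with each of these neighbours within their spread except Col12a1 and Col4a1. In LATS1/2-Sox9-KO it began with Col4a5, at 62.6 ± 6.28, Col12a1, at 45.1 ± 10.6, and Col7a1, at 17.04 ± 4.66.

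**Figure D2:**
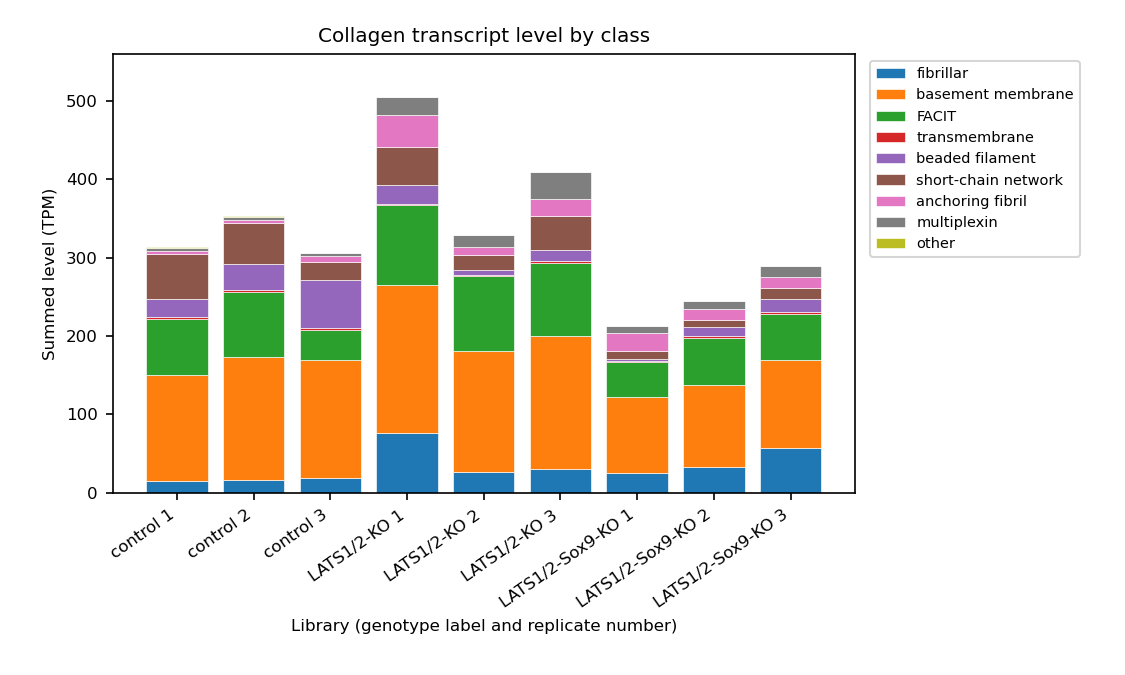
Bars give the summed level of the 44 collagen genes in TPM in each library, stacked by class. On this scale the 3 LATS1/2-Sox9-KO libraries have the shortest bars, between 212 and 289.7 TPM. Sums of normalized counts did not keep this order. The fibrillar part is larger in all 6 libraries of the floxed genotypes than in the 3 of control.

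Fibrillar collagens, which form the load-bearing fibrils, were higher than control for 8 of the 10 tested in LATS1/2-KO and for 7 in LATS1/2-Sox9-KO (17.1% and 17.8% of all genes), with medians of 2.22 and 2.47 on the log2 scale over the 10. Col1a1, the major chain of type I, had normalized counts of 266, 291 and 377 in the control libraries, 2413, 443 and 643 in those labelled LATS1/2-KO and 1236.5, 1354 and 2252.5 in those labelled LATS1/2-Sox9-KO. Control libraries were below all others, and LATS1/2-KO replicate 1 was far above its 2 companions. The change was 1.90 on the log2 scale for LATS1/2-KO (SE 0.56, adjusted p = 0.0152) and 2.37 for LATS1/2-Sox9-KO (SE 0.57, adjusted p = 0.00487). Without LATS1/2-KO replicate 1 the first was 0.81 (adjusted p = 0.0396), and without control replicate 1 it missed the threshold at 1.80 (adjusted p = 0.0522). Its partner Col1a2 had normalized counts of 102, 173.5 and 249 in the control libraries, 1753, 348 and 499 in those labelled LATS1/2-KO and 578, 994 and 1521 in those labelled LATS1/2-Sox9-KO, with the same LATS1/2-KO library highest. It rose by 2.31 (adjusted p = 0.00992) and 2.56 (adjusted p = 0.00558) on the log2 scale, and by 1.28 (adjusted p = 0.0327) for LATS1/2-KO without replicate 1. Col3a1, which joins type I in fibrils of soft tissue, had normalized counts of 89.3, 153 and 443 in the control libraries, 4067, 1244 and 706 in those labelled LATS1/2-KO and 1018, 1489.7 and 3131 in those labelled LATS1/2-Sox9-KO. Control replicate 3 was its highest control and LATS1/2-KO replicate 1 its highest library, and no control library reached any of the others. It rose by 3.14 (adjusted p = 0.00651) and 3.04 (adjusted p = 0.00702) on the log2 scale. With the libraries holding adipocyte markers left out, described further on, the second was 2.18. Without LATS1/2-KO replicate 1 the Col3a1 increase in LATS1/2-KO was 2.10 (adjusted p = 0.0217), and without control replicate 3 the increases were 4.03 and 3.96.

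The type V chains, which start and limit the thickness of type I fibrils, were low in control and rose in both genotypes. Col5a2 had normalized counts of 22.04, 41.96 and 98.3 in the control libraries, 1164, 505 and 382 in those labelled LATS1/2-KO and 161.5, 513 and 829.8 in those labelled LATS1/2-Sox9-KO. Groups did not overlap with control (log2 fold change 3.66, SE 0.73, adjusted p = 0.00189 for LATS1/2-KO, and log2 fold change 3.22, adjusted p = 0.00337 for LATS1/2-Sox9-KO). Without control replicate 3 these were 4.39 and 3.97, and without LATS1/2-KO replicate 1 the first was 3.05. With the libraries holding adipocyte markers left out, described further on, the second was 1.6 (adjusted p = 0.129). Col5a3 went from 29.00, 5.67 and 16.2 normalized counts in control to 218, 115 and 207 in LATS1/2-KO and 223, 169 and 207 in LATS1/2-Sox9-KO, a log2 fold change of 3.40 (adjusted p = 0.000289) and 3.55 (adjusted p = 0.000196), or 4.04 and 4.19 without control replicate 1. Col5a1 had normalized counts of 49.9, 24.9 and 31.1 in the control libraries, 257, 107 and 105 in those labelled LATS1/2-KO and 175, 213 and 276 in those labelled LATS1/2-Sox9-KO, a log2 fold change of 2.14 (adjusted p = 0.00217) and 2.65 (adjusted p = 0.000572). Between the 2 floxed genotypes the chains of types I, III and V had log2 differences from -0.45 (Col5a2) to 0.51 (Col5a1), and none passed the test.

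The minor fibrillar chains divided. Col11a1, a type XI chain that sits in the core of thin fibrils, had normalized counts of 809.6, 908 and 505 in the control libraries, 1045, 1683 and 2381 in those labelled LATS1/2-KO and 486, 638 and 719 in those labelled LATS1/2-Sox9-KO. It was higher in LATS1/2-KO than in both other groups, without overlap. It rose in LATS1/2-KO (log2 fold change 1.20, SE 0.31, adjusted p = 0.00824, or 0.47 with an adjusted p of 0.329 when the libraries holding adipocyte markers, described further on, were left out) and was lower in LATS1/2-Sox9-KO than in LATS1/2-KO (log2 fold change -1.47, SE 0.31, adjusted p = 0.0261), whereas LATS1/2-Sox9-KO and control gave a log2 difference of -0.27 (adjusted p = 0.48). The difference from LATS1/2-KO missed the threshold without LATS1/2-KO replicate 2 (adjusted p = 0.0582), LATS1/2-KO replicate 3 (adjusted p = 0.0872), LATS1/2-Sox9-KO replicate 1 (adjusted p = 0.0919), LATS1/2-Sox9-KO replicate 2 (adjusted p = 0.0984) or LATS1/2-Sox9-KO replicate 3 (adjusted p = 0.0573). Its partner Col11a2 moved the other way, with normalized counts of 699, 671 and 788 in the control libraries, 245, 83.9 and 160.5 in those labelled LATS1/2-KO and 117, 79.7 and 122 in those labelled LATS1/2-Sox9-KO. All 6 libraries of the floxed genotypes were below control (log2 fold change -2.14, SE 0.35, adjusted p = 0.000574 and log2 fold change -2.76, SE 0.36, adjusted p = 0.000119). Per length, Col11a2 made up 61.6, 57.8 and 74.3% of the 2 chains in control and 30.3, 8.46 and 11.1% in LATS1/2-KO. Col27a1, a fibrillar chain known from developing cartilage, was near absent in control at 5.80, 6.80 and 12.4 normalized counts, and reached 113, 66.1 and 131 in LATS1/2-KO and 37.1, 37.9 and 28.2 in LATS1/2-Sox9-KO. Its 3 groups were fully separate (log2 fold change 3.62, SE 0.46, adjusted p = 0.000113 for LATS1/2-KO against control, and log2 fold change -1.59, adjusted p = 0.0473 for LATS1/2-Sox9-KO against LATS1/2-KO). The last difference had an adjusted p of 0.0642 without the filter on low counts, and missed the threshold without LATS1/2-KO replicate 1 (adjusted p = 0.0599), LATS1/2-KO replicate 3 (adjusted p = 0.15), LATS1/2-Sox9-KO replicate 1 (adjusted p = 0.115), LATS1/2-Sox9-KO replicate 2 (adjusted p = 0.144) or LATS1/2-Sox9-KO replicate 3 (adjusted p = 0.152). So it did with the replicate number as a block (adjusted p = 0.0862). Col2a1, the main collagen of cartilage, had 16.8, 25.8 and 20.6 normalized counts on average in the 3 groups and passed no test.

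**Figure D3:**
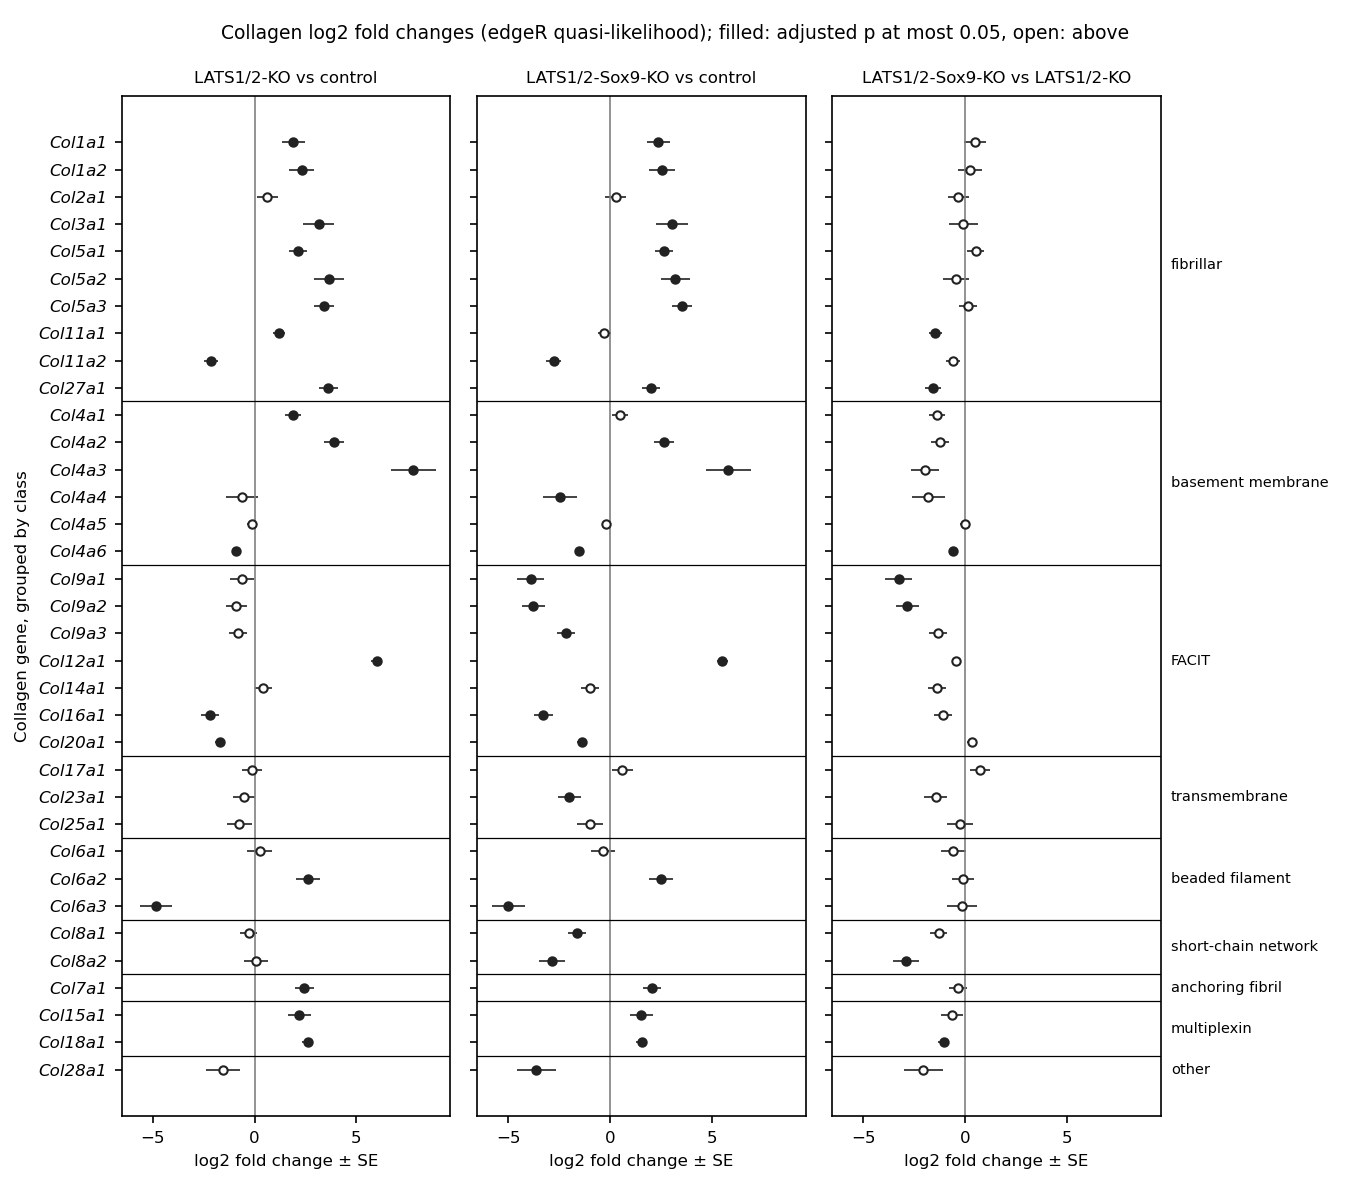
Points give the log2 fold change of the 35 tested collagens in the 3 comparisons, on the same scale, and bars its standard error. Filled points have an adjusted p of at most 0.05 by edgeR's quasi-likelihood test. Against control, all filled fibrillar chains but Col11a2 lie to the right of 0, and Col6a3 is the leftmost point. Where LATS1/2-Sox9-KO is set against LATS1/2-KO, the 7 filled points all lie to the left of 0.

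The 6 type IV chains of the basement membrane form 3 networks, and their genes did not all move alike. Col4a5 and Col4a6, which are known to pair in one network, had the highest mean TPM in control. By library, Col8a1 was above Col4a6 in control replicate 1, and Col6a3 was above it in control replicate 3. Col4a5 had normalized counts of 8019, 8939 and 9212 in the control libraries, 11223, 6688 and 5632 in those labelled LATS1/2-KO and 8823, 7140.5 and 7198.5 in those labelled LATS1/2-Sox9-KO and passed no test with all 9 libraries, while without LATS1/2-KO replicate 1 it was lower in LATS1/2-KO than in control, at -0.50 (adjusted p = 0.0128). Col4a6 had normalized counts of 5803, 6696 and 6882.5 in the control libraries, 3371, 3741 and 3267 in those labelled LATS1/2-KO and 2330.0, 2329 and 2189.7 in those labelled LATS1/2-Sox9-KO. Its groups were separate, with a SD of at most 577 normalized counts. It fell in LATS1/2-KO by less than 2-fold (log2 fold change -0.90, SE 0.11, adjusted p = 6.93e-05), was lower still in LATS1/2-Sox9-KO (log2 fold change -1.50, SE 0.11, adjusted p = 3.06e-06), and fell between the 2 floxed genotypes (log2 fold change -0.60, SE 0.10, adjusted p = 0.0136). The last difference missed the threshold without LATS1/2-Sox9-KO replicate 2 (adjusted p = 0.069) or LATS1/2-Sox9-KO replicate 3 (adjusted p = 0.0572).

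Col4a1 (ENSMUSG00000031502, chr8:11198423-11312826, minus strand) and Col4a2 (ENSMUSG00000031503, chr8:11312805-11449287, plus strand), which overlap in their first exons, rose together. Col4a1 had normalized counts of 1516, 1576 and 647 in the control libraries, 3638, 4268.5 and 5744 in those labelled LATS1/2-KO and 890.2, 2041 and 2286 in those labelled LATS1/2-Sox9-KO. The LATS1/2-KO libraries were above all others, and LATS1/2-Sox9-KO overlapped control. It rose in LATS1/2-KO (log2 fold change 1.87, SE 0.40, adjusted p = 0.00291), while LATS1/2-Sox9-KO gave a log2 difference of 0.48 from control (adjusted p = 0.32) and of -1.39 from LATS1/2-KO (adjusted p = 0.068, and 0.0042 by DESeq2). Col4a2 had normalized counts of 296, 328 and 128 in the control libraries, 2947, 3444 and 4875 in those labelled LATS1/2-KO and 662, 1774 and 2329 in those labelled LATS1/2-Sox9-KO. Its 3 groups did not overlap. It rose in LATS1/2-KO (log2 fold change 3.90, SE 0.50, adjusted p = 0.00012) and in LATS1/2-Sox9-KO (log2 fold change 2.66, SE 0.48, adjusted p = 0.000857), and the difference between these missed the threshold (log2 -1.24, adjusted p = 0.133, and 0.0299 by DESeq2). With the libraries holding adipocyte markers left out, described further on, the Col4a2 increase in LATS1/2-Sox9-KO was 1.42 (adjusted p = 0.0674) and that of Col4a1 in LATS1/2-KO 1.52 (adjusted p = 0.0538). Per length, Col4a2 had 2.39 TPM beside 10.5 TPM of Col4a1 in control, and 34.2 beside 36.8 TPM in LATS1/2-KO.

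Col4a3 and Col4a4, separated by the 71 bases shown, did not move together. Col4a3 had 2 counts in 1 of the 3 control libraries and none in the others, with 53, 278 and 346 counts in LATS1/2-KO and 86, 52 and 24 in LATS1/2-Sox9-KO. Over the groups, LATS1/2-KO had 263 times the control count per library size (95% exact interval 72.6 to 2180) and LATS1/2-Sox9-KO 64.9 times (17.7 to 541), intervals that cover counting error only. The test put it as higher in both (adjusted p = 0.000218 and 0.0013), and between the 2 floxed genotypes it missed the threshold (adjusted p = 0.13, and 0.0264 by DESeq2), which it passed without LATS1/2-KO replicate 1 (adjusted p = 0.0297). Of its exon bases, 5.6% overlap a gene on the other strand, C430014B12Rik, which had 232 counts in all libraries beside 841 of Col4a3, and whether the counts kept strands apart was not tested. Col4a4 had normalized counts of 54.5, 209.8 and 829 in the control libraries, 103, 225 and 375 in those labelled LATS1/2-KO and 80.8, 57.8 and 61.9 in those labelled LATS1/2-Sox9-KO. Its control libraries spread widely, and control replicate 3 alone exceeded every other library. It passed the test as lower in LATS1/2-Sox9-KO against control (log2 fold change -2.44, SE 0.83, adjusted p = 0.0275), but without control replicate 3 the difference was -0.98 (adjusted p = 0.213). Leaving out any LATS1/2-Sox9-KO library also ended the call (adjusted p = 0.0582, 0.0823 and 0.0774), as did the replicate number as a block (adjusted p = 0.0718).

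**Figure D4:**
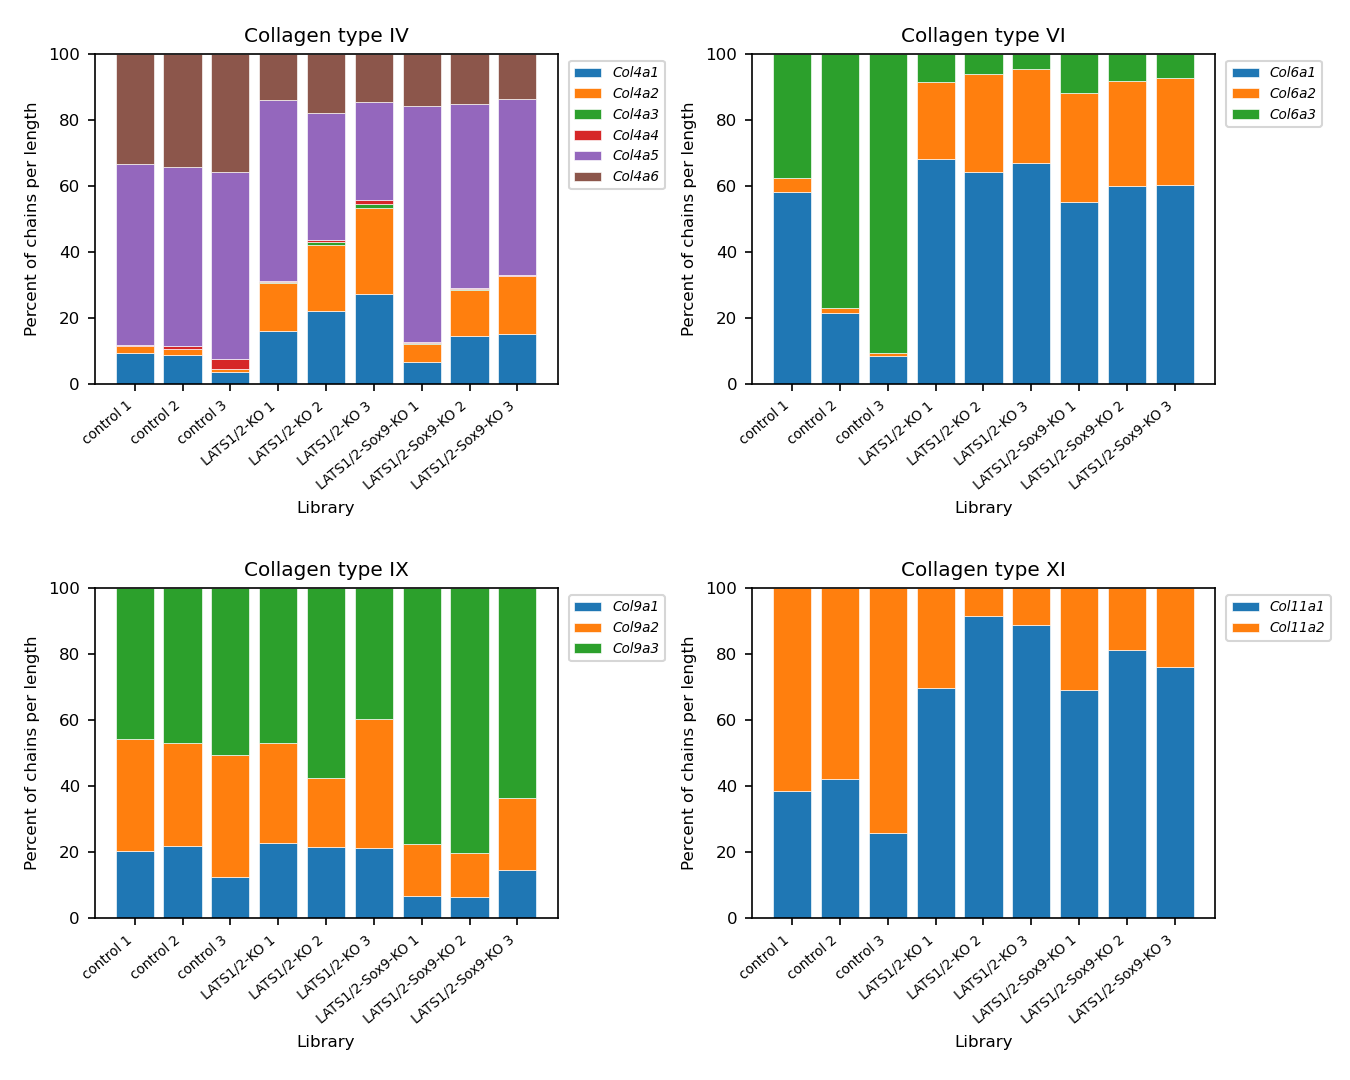
Stacked bars give each chain's percent of the summed TPM of its collagen type (IV, VI, IX and XI) in each library. Col6a3 shrinks from 37.5% to 90.7% of type VI in control to at most 11.96% in the other 6 libraries, Col4a1 and Col4a2 widen in LATS1/2-KO, and Col9a3 takes a larger part of type IX in LATS1/2-Sox9-KO than in control.

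Among FACIT collagens, 1 gene had the largest well-measured increase of the family and the others fell or missed the threshold in the fit of all libraries. Col12a1 (ENSMUSG00000032332, chr9:79598991-79718831, minus strand), which bridges type I fibrils in tendon and other loaded tissue, had normalized counts of 216, 307 and 294 in the control libraries, 13907, 20756 and 17168 in those labelled LATS1/2-KO and 9444, 14450.4 and 13764 in those labelled LATS1/2-Sox9-KO. All 6 libraries of the floxed genotypes lay far above the highest control. It rose by 5.99 on the log2 scale in LATS1/2-KO (SE 0.25, adjusted p = 3.82e-07) and by 5.53 in LATS1/2-Sox9-KO (SE 0.25, adjusted p = 3.94e-07). Per length it went from 1.13 ± 0.214 TPM (SD, n = 3) to 68.3 ± 11.9 and 45.1 ± 10.6 TPM. Its close relative Col14a1 had normalized counts of 118, 134 and 112 in the control libraries, 215, 102.5 and 172 in those labelled LATS1/2-KO and 106, 33.9 and 45.5 in those labelled LATS1/2-Sox9-KO and missed the threshold in LATS1/2-Sox9-KO against control, at -0.97 (adjusted p = 0.0827, and 0.0488 by DESeq2), and against LATS1/2-KO, at -1.40 (adjusted p = 0.092, and 0.0177 by DESeq2). Without LATS1/2-Sox9-KO replicate 1 both passed, at -1.59 (adjusted p = 0.00721) and -2.0 (adjusted p = 0.0299). Col16a1, found in the skin and at cell surfaces, had normalized counts of 1959, 2091 and 1303 in the control libraries, 488, 214 and 458 in those labelled LATS1/2-KO and 318, 109.6 and 125 in those labelled LATS1/2-Sox9-KO. It was below every control library in all 6 and fell by 2.21 (adjusted p = 0.00192) and by 3.27 (adjusted p = 0.000197) on the log2 scale, the second being -3.91 without LATS1/2-Sox9-KO replicate 1. Between the floxed genotypes it missed the threshold at -1.07 (adjusted p = 0.181). Col20a1 had normalized counts of 589, 617 and 474 in the control libraries, 134, 168 and 212 in those labelled LATS1/2-KO and 233, 231 and 179 in those labelled LATS1/2-Sox9-KO, and fell by 1.71 and 1.38 (adjusted p = 0.000165 and 0.000511). It shares 79 exon bases on the same strand with BX649560.1, which had 3008 counts in all, so its count is uncertain where reads fall in those bases.

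The 3 chains of type IX, the FACIT collagen bound to type II fibrils in cartilage, were all detected in control and were lowest in LATS1/2-Sox9-KO. Col9a1 (ENSMUSG00000026147, chr1:24177610-24252684, plus strand) had normalized counts of 714.5, 907 and 192 in the control libraries, 678, 187 and 309 in those labelled LATS1/2-KO and 33.4, 25.9 and 61.9 in those labelled LATS1/2-Sox9-KO. LATS1/2-KO overlapped control, and the 3 LATS1/2-Sox9-KO libraries were below all other 6. It was lower in LATS1/2-Sox9-KO against control (log2 fold change -3.90, SE 0.68, adjusted p = 0.000747) and against LATS1/2-KO (log2 fold change -3.27, SE 0.66, adjusted p = 0.0223), and LATS1/2-KO against control gave -0.63 (adjusted p = 0.395). Col9a2 (ENSMUSG00000028626, chr4:121039385-121055322, plus strand) had normalized counts of 738, 791.5 and 351 in the control libraries, 548, 110.1 and 347 in those labelled LATS1/2-KO and 48.3, 32.9 and 57.4 in those labelled LATS1/2-Sox9-KO, with the same order of groups. It was lower in LATS1/2-Sox9-KO against control (log2 fold change -3.76, SE 0.58, adjusted p = 0.000324) and against LATS1/2-KO (log2 fold change -2.85, SE 0.56, adjusted p = 0.0192). The difference from LATS1/2-KO missed the threshold for Col9a1 without LATS1/2-KO replicate 3 (adjusted p = 0.0536), LATS1/2-Sox9-KO replicate 1 (adjusted p = 0.0763) or LATS1/2-Sox9-KO replicate 2 (adjusted p = 0.0966), and was -2.61 without LATS1/2-KO replicate 1. For Col9a2 it did so without LATS1/2-KO replicate 3 (adjusted p = 0.0585), LATS1/2-Sox9-KO replicate 1 (adjusted p = 0.0612) or LATS1/2-Sox9-KO replicate 2 (adjusted p = 0.0878). Col9a3 had normalized counts of 1227, 1482 and 599 in the control libraries, 1064, 378 and 437 in those labelled LATS1/2-KO and 294, 246 and 208 in those labelled LATS1/2-Sox9-KO. It fell against control in LATS1/2-Sox9-KO (log2 fold change -2.14, SE 0.44, adjusted p = 0.00202), and against LATS1/2-KO the log2 difference was -1.33 (adjusted p = 0.101, and 0.0145 by DESeq2). Without LATS1/2-KO replicate 1 the difference of LATS1/2-KO from control passed the test for Col9a2, at -1.45 (adjusted p = 0.0385), and for Col9a3, at -1.43 (adjusted p = 0.00745), as it did for Col9a3 without control replicate 3, at -1.13 (adjusted p = 0.0393). Per length, Col9a3 took 45.6, 46.9 and 50.7% of the 3 chains in control and 77.5, 80.2 and 63.7% in LATS1/2-Sox9-KO. Tcfl5, on the other strand, overlaps 6.1% of the exon bases of Col9a3 and had 442 counts in all libraries beside 5624 of Col9a3.

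The list of collagens known from cartilage (types II, IX, X, XI and Col27a1) held 8 genes, of which 7 were tested. Against LATS1/2-KO, 4 were called lower in LATS1/2-Sox9-KO and all 7 estimates were lower, with a median of -1.47 beside -0.02 for all genes, of which 2.16% were called lower. Of 8 other cartilage matrix genes and regulators, 5 were tested. Of these, 3 were called lower in the same comparison (2.16% of all genes), and 0 higher (0 also at an unadjusted p under 0.05 and by DESeq2). Sox6, a partner of SOX9 in chondrocytes, had normalized counts of 551, 678 and 556 in the control libraries, 595, 973 and 455 in those labelled LATS1/2-KO and 65.9, 92.7 and 110.2 in those labelled LATS1/2-Sox9-KO. The LATS1/2-Sox9-KO libraries were below all others (log2 fold change -2.91, SE 0.31, adjusted p = 0.0023). Its relative Sox5 had normalized counts of 158, 159.9 and 65.96 in the control libraries, 75.2, 27.1 and 46.5 in those labelled LATS1/2-KO and 7.43, 6.97 and 14.6 in those labelled LATS1/2-Sox9-KO (log2 fold change -2.34, SE 0.55, adjusted p = 0.036). Cnmd, the cartilage glycoprotein chondromodulin, ranged widely, at 69.6, 178 and 11.2 in the control libraries, 98.3, 835 and 258 in those labelled LATS1/2-KO and 26.9, 26.9 and 9.11 in those labelled LATS1/2-Sox9-KO (log2 fold change -4.24, SE 1.03, adjusted p = 0.0405). Matn3, a cartilage matrix protein called higher in both floxed genotypes, had 0 counts in the 3 control libraries, 48, 10 and 4 counts in LATS1/2-KO and 10, 15 and 14 in LATS1/2-Sox9-KO.

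Type VI collagen forms beaded filaments around cells from 3 different chains, and its chains changed in opposite directions. Col6a3 (ENSMUSG00000048126, chr1:90765923-90843971, minus strand) had normalized counts of 1664, 4829 and 10599 in the control libraries, 387, 83.03 and 127 in those labelled LATS1/2-KO and 86.3, 187 and 259 in those labelled LATS1/2-Sox9-KO. The control libraries spread over a wide range, and the lowest of them was above all 6 others. It fell in LATS1/2-KO (log2 fold change -4.85, SE 0.81, adjusted p = 0.000619) and in LATS1/2-Sox9-KO (log2 fold change -5.00, SE 0.81, adjusted p = 0.000475), with -4.05 and -4.19 when control replicate 3 was left out. Without LATS1/2-KO replicate 1 the first was -5.76. With the libraries holding adipocyte markers left out, described further on, the first was -3.90 and the second -6.02. The control libraries ranked in the same order for the fibroblast gene Dcn, at 1626, 3291 and 8162 normalized counts, and for the matrix gene Thbs2, at 53.4, 178 and 3805, both picked after their values were seen. Pdgfra, another fibroblast gene, was lowest in control replicate 3, with 341, 418 and 299 normalized counts in control replicates 1 to 3. The part of other cells in the Col6a3 result was not tested. Col6a2 had normalized counts of 132, 56.7 and 68.5 in the control libraries, 740.2, 277 and 564.5 in those labelled LATS1/2-KO and 165, 502 and 805 in those labelled LATS1/2-Sox9-KO. It was higher than control in all 6 (log2 fold change 2.62, SE 0.59, adjusted p = 0.00386 and log2 fold change 2.51, SE 0.59, adjusted p = 0.00442), but with the libraries holding adipocyte markers left out, described further on, the second was 0.97 (adjusted p = 0.187). Col6a1 had normalized counts of 946, 496 and 363 in the control libraries, 1138, 316 and 694 in those labelled LATS1/2-KO and 146, 497 and 783 in those labelled LATS1/2-Sox9-KO, overlapped in all groups and passed no test. Per length, Col6a3 made up 37.5, 77.1 and 90.7% of the 3 chains in control, 8.49, 6.18 and 4.47% in LATS1/2-KO and 11.96, 8.26 and 7.28% in LATS1/2-Sox9-KO.

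The anchoring fibril collagen Col7a1, which ties epithelial basement membranes to the stroma, rose. It had normalized counts of 547.5, 629 and 1113 in the control libraries, 6762, 1788 and 3869 in those labelled LATS1/2-KO and 4329, 2573 and 2776 in those labelled LATS1/2-Sox9-KO. All 6 libraries of the floxed genotypes were above control (log2 fold change 2.44, SE 0.46, adjusted p = 0.00134 and log2 fold change 2.08, SE 0.45, adjusted p = 0.00291). The multiplexin Col18a1, a basement membrane proteoglycan and the source of endostatin, had normalized counts of 445, 505 and 387 in the control libraries, 2444, 1852 and 3896 in those labelled LATS1/2-KO and 1114, 1206 and 1614 in those labelled LATS1/2-Sox9-KO. Its 3 groups were separate. It rose in LATS1/2-KO (log2 fold change 2.61, SE 0.27, adjusted p = 3.62e-05), rose less in LATS1/2-Sox9-KO (log2 fold change 1.56, SE 0.27, adjusted p = 0.000645), and was lower in LATS1/2-Sox9-KO than in LATS1/2-KO (log2 fold change -1.06, SE 0.26, adjusted p = 0.0415). That difference missed the threshold without LATS1/2-KO replicate 3 (adjusted p = 0.113), LATS1/2-Sox9-KO replicate 1 (adjusted p = 0.136), LATS1/2-Sox9-KO replicate 2 (adjusted p = 0.158) or LATS1/2-Sox9-KO replicate 3 (adjusted p = 0.0581). So it did with the replicate number as a block (adjusted p = 0.0513) and with the 2 groups fitted alone (adjusted p = 0.0681). The other multiplexin, Col15a1, had normalized counts of 27.8, 14.7 and 36.1 in the control libraries, 215, 58.5 and 90.3 in those labelled LATS1/2-KO and 64.05, 54.8 and 111 in those labelled LATS1/2-Sox9-KO (log2 fold change 2.20, SE 0.56, adjusted p = 0.00743 and log2 fold change 1.55, SE 0.56, adjusted p = 0.0357). Its increase in LATS1/2-KO was 1.51 without LATS1/2-KO replicate 1. Its increase in LATS1/2-Sox9-KO missed the threshold without control replicate 1 (adjusted p = 0.0766), control replicate 2 (adjusted p = 0.117) or LATS1/2-Sox9-KO replicate 3 (adjusted p = 0.126).

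The short-chain collagens Col8a1 and Col8a2, which form the hexagonal network of the corneal Descemet membrane and of vessel walls, did not pass the test in LATS1/2-KO and fell in LATS1/2-Sox9-KO. Col8a1 had normalized counts of 5738, 5471.5 and 2143 in the control libraries, 5339, 1813 and 3711 in those labelled LATS1/2-KO and 1134, 1354 and 1880.0 in those labelled LATS1/2-Sox9-KO. The LATS1/2-Sox9-KO libraries were below all control libraries (log2 fold change -1.61, SE 0.44, adjusted p = 0.00946), and against LATS1/2-KO the log2 difference was -1.31 (adjusted p = 0.105, and 0.0146 by DESeq2). Col8a2 had normalized counts of 834, 463 and 490.4 in the control libraries, 439, 396.5 and 1041.5 in those labelled LATS1/2-KO and 173, 45.8 and 31.9 in those labelled LATS1/2-Sox9-KO. All 3 LATS1/2-Sox9-KO libraries were below the other 6 (log2 fold change -2.83, SE 0.64, adjusted p = 0.00343 against control, and log2 fold change -2.90, SE 0.64, adjusted p = 0.0289 against LATS1/2-KO). Without LATS1/2-Sox9-KO replicate 1 these differences were -3.92 and -3.98. The second missed the threshold without LATS1/2-KO replicate 3 (adjusted p = 0.0934), LATS1/2-Sox9-KO replicate 2 (adjusted p = 0.111) or LATS1/2-Sox9-KO replicate 3 (adjusted p = 0.0726).

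Transmembrane collagens, which span the cell membrane and have their triple helix outside the cell, were low. All 4 had summed levels of at most 3.27 TPM in any library, and in LATS1/2-KO none passed the test (0 higher and 0 lower, also at an unadjusted p under 0.05 and by DESeq2), where 28.7% of all genes rose and 27.1% fell. Col17a1, the collagen of hemidesmosomes in basal epithelial cells, had normalized counts of 128, 190.5 and 94.6 in the control libraries, 132, 56.8 and 189 in those labelled LATS1/2-KO and 94.7, 298 and 236 in those labelled LATS1/2-Sox9-KO. Its groups overlapped and it passed no test. Of 5 partners in hemidesmosomes, 3 were called lower in both floxed genotypes (17.5% and 19.6% of all genes), namely Itga6, Plec and Dst, with log2 fold changes of -1.04, -1.52 and -1.24 in LATS1/2-KO (adjusted p = 8.74e-05, 0.00311 and 3.65e-05). At the adjusted p alone, 1 of the 5 was higher in each genotype than in control (28.7% and 29.3% of all genes), by less than 2-fold. Col23a1 had normalized counts of 109, 68.04 and 51.03 in the control libraries, 20.1, 49.99 and 86.6 in those labelled LATS1/2-KO and 14.8, 27.9 and 14.6 in those labelled LATS1/2-Sox9-KO. It was lower in LATS1/2-Sox9-KO against control (log2 fold change -1.99, SE 0.57, adjusted p = 0.0132), which missed the threshold without control replicate 1 (adjusted p = 0.0537) or LATS1/2-Sox9-KO replicate 3 (adjusted p = 0.0525). Col25a1 stayed under 100 normalized counts in each library and passed no test. Col28a1, a minor collagen of peripheral nerve, had at most 36.0 normalized counts in a library, with a log2 difference of -3.61 in LATS1/2-Sox9-KO against control (adjusted p = 0.00845).

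The 9 collagens that did not pass the filter were Col6a4, Col6a5, Col6a6, Col10a1, Col13a1, Col19a1, Col22a1, Col24a1 and Col26a1. Col6a4 reached the highest single count among them, 12, in LATS1/2-KO replicate 1. Col24a1 had 5, 5 and 4 counts in LATS1/2-Sox9-KO, 0 in LATS1/2-KO and 3, 0 and 0 in control. Col10a1, a marker of hypertrophic cartilage, had at most 2 counts in any library. These genes were not tested.

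Genes that modify, process and cross-link collagen chains were described from lists. Of 18 genes of collagen hydroxylation, glycosylation and folding, all tested, 7 rose and 7 fell in LATS1/2-KO at the adjusted p, with a median of 0.15, and in LATS1/2-Sox9-KO 7 rose and 9 fell, with a median of -0.35. Of all genes, 28.7% rose and 27.1% fell in LATS1/2-KO, and 29.3% and 28.7% in LATS1/2-Sox9-KO. The lysyl hydroxylases moved in opposite directions. Plod1 had normalized counts of 7729, 7481 and 8813 in the control libraries, 952, 568 and 855.5 in those labelled LATS1/2-KO and 826, 416.5 and 530.1 in those labelled LATS1/2-Sox9-KO, with all 6 far below control (log2 fold change -3.34, SE 0.27, adjusted p = 9.10e-06 and log2 fold change -3.76, SE 0.28, adjusted p = 3.78e-06). Plod2, which hydroxylates the lysines of the chain ends, had normalized counts of 232, 272 and 134 in the control libraries, 5799.9, 3705 and 3098 in those labelled LATS1/2-KO and 2673, 3784.5 and 3222 in those labelled LATS1/2-Sox9-KO, with all 6 above control (log2 fold change 4.30, SE 0.32, adjusted p = 5.87e-06 and log2 fold change 3.92, SE 0.32, adjusted p = 6.16e-06). Serpinh1, the collagen chaperone HSP47, had normalized counts of 3404, 3011 and 1745 in the control libraries, 14342, 9077 and 11958.5 in those labelled LATS1/2-KO and 7473, 7268 and 7429.8 in those labelled LATS1/2-Sox9-KO and rose in both (log2 fold change 2.12, SE 0.24, adjusted p = 6.10e-05 and log2 fold change 1.44, SE 0.24, adjusted p = 0.000515). The prolyl hydroxylase family also parted, as P3h2 rose (log2 fold change 2.43, SE 0.21, adjusted p = 1.10e-05) and P3h3 fell (log2 fold change -2.09, SE 0.24, adjusted p = 7.11e-05), as did P3h4 (log2 fold change -2.13, SE 0.19, adjusted p = 1.62e-05), a non-enzymatic relative. Between the 2 floxed genotypes, 3 of the 18 were called lower (2.16% of all genes) and 0 higher (1.55% of all genes, 0 also at an unadjusted p under 0.05 and by DESeq2). Colgalt2, a collagen galactosyltransferase, had normalized counts of 198, 266.5 and 161 in the control libraries, 166.5, 801 and 199.7 in those labelled LATS1/2-KO and 0.928, 3.99 and 15.5 in those labelled LATS1/2-Sox9-KO (log2 fold change -5.80, SE 0.88, adjusted p = 0.00822). Fkbp10, an endoplasmic reticulum isomerase for collagen, had normalized counts of 1527.5, 1311 and 895 in the control libraries, 367, 403 and 927.5 in those labelled LATS1/2-KO and 209.8, 216 and 200.4 in those labelled LATS1/2-Sox9-KO, separate between the 2 floxed genotypes (log2 fold change -1.44, SE 0.35, adjusted p = 0.0402), and the other called was P3h3 (log2 fold change -1.18, SE 0.25, adjusted p = 0.0241).

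Of 6 cross-linking genes, 5 rose in LATS1/2-KO at the adjusted p (28.7% of all genes, with 4 by more than 2-fold), the median of the 6 being 3.86 on the log2 scale, and 4 rose in LATS1/2-Sox9-KO (29.3% of all genes) with a median of 3.59. Lox, the lysyl oxidase that starts collagen cross-links, had normalized counts of 3.48, 1.13 and 8.71 in the control libraries, 584, 873 and 1243 in those labelled LATS1/2-KO and 3884, 6249.7 and 5287 in those labelled LATS1/2-Sox9-KO. The 3 groups did not overlap, with the LATS1/2-Sox9-KO libraries highest. It rose in LATS1/2-KO (log2 fold change 7.66, SE 0.49, adjusted p = 3.00e-06) and was higher again in LATS1/2-Sox9-KO than in LATS1/2-KO (log2 fold change 2.51, SE 0.32, adjusted p = 0.00416), the opposite direction to the 7 collagens that fell in that comparison. Loxl4 had normalized counts of 61.5, 41.96 and 188 in the control libraries, 1969.7, 2559.6 and 2185 in those labelled LATS1/2-KO and 1755, 2202 and 2272 in those labelled LATS1/2-Sox9-KO (log2 fold change 4.53, SE 0.47, adjusted p = 3.38e-05 and log2 fold change 4.43, SE 0.47, adjusted p = 2.96e-05). Loxl2, a lysyl oxidase that acts on type IV collagen, had 1 count over the 3 control libraries and 668 over those of LATS1/2-KO, or 520 times the count per library size (95% exact interval 93.0 to 20600, counting error only). Most of the 668 were in LATS1/2-KO replicate 1, as the libraries had 463, 84 and 121 counts. Of 8 procollagen processing genes, 2 rose and 2 fell in LATS1/2-KO, against 28.7% and 27.1% of all genes. Adamts14 and Adamts2, which remove the amino-terminal propeptides of fibrillar chains, rose (log2 fold change 5.19, SE 0.60, adjusted p = 6.55e-05, and log2 fold change 1.93, SE 0.27, adjusted p = 0.000214), and Adamts3 (log2 fold change -1.91, SE 0.32, adjusted p = 0.000641) and the propeptidase Tll2 (log2 fold change -3.65, SE 1.05, adjusted p = 0.0138) fell. Tll2 was low throughout, with 11, 13 and 18 counts in the control libraries and 0, 2 and 2 in those labelled LATS1/2-KO. Pcolce, the enhancer of carboxy-terminal cleavage, and Adamts3 were the 2 called lower in LATS1/2-Sox9-KO against LATS1/2-KO, where 2.16% of all genes were (log2 fold change -1.38, SE 0.25, adjusted p = 0.0141, and log2 fold change -1.28, SE 0.32, adjusted p = 0.0451).

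**Figure D5:**
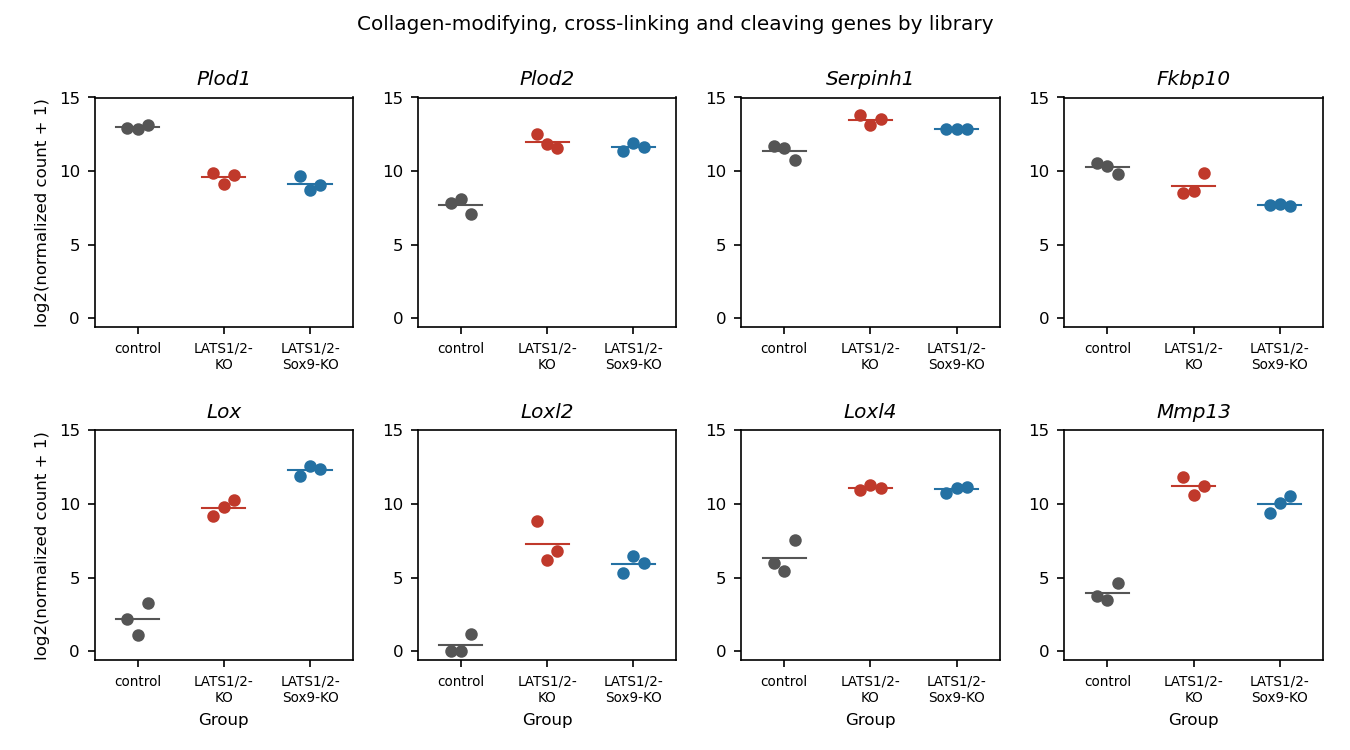
Points are the 9 libraries and lines the mean of a group, as log2(normalized count + 1), for 8 genes that modify, cross-link or cleave collagen. Plod1 is higher and Plod2 lower in control than in the 6 other libraries, Lox rises from control to LATS1/2-KO and again to LATS1/2-Sox9-KO, and the mean of Fkbp10 falls in the same order.

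Of 7 collagenases and gelatinases, 5 were tested and all 5 rose in LATS1/2-KO, while 4 did in LATS1/2-Sox9-KO, where 28.7% and 29.3% of all genes rose. Mmp13, the main collagenase of rodents, had normalized counts of 12.8, 10.2 and 23.6 in the control libraries, 3722, 1556 and 2397 in those labelled LATS1/2-KO and 669, 1088 and 1472 in those labelled LATS1/2-Sox9-KO (log2 fold change 7.37, SE 0.51, adjusted p = 3.88e-06 and log2 fold change 6.12, SE 0.49, adjusted p = 5.77e-06). All 6 libraries of the floxed genotypes were far above control. Mmp9 had normalized counts of 5.80, 6.80 and 13.7 in the control libraries, 128, 65.2 and 97.6 in those labelled LATS1/2-KO and 615.5, 20.9 and 41.9 in those labelled LATS1/2-Sox9-KO, with LATS1/2-Sox9-KO replicate 1 far above its companions. It rose in LATS1/2-KO against control (log2 fold change 3.46, SE 1.19, adjusted p = 0.0306). Mmp2, a gelatinase, rose in LATS1/2-KO (log2 fold change 1.96, SE 0.29, adjusted p = 0.000274) and in LATS1/2-Sox9-KO (log2 fold change 1.95, SE 0.29, adjusted p = 0.000247). Of 10 collagen receptors, 9 were tested. At the adjusted p 2 rose, 1 fell and 6 did neither in LATS1/2-KO (28.7% and 27.1% of all genes rose and fell). In LATS1/2-Sox9-KO 3 rose, 1 fell and 5 did neither (29.3% and 28.7% of all genes). The shared integrin chain Itgb1 rose in both genotypes (log2 fold change 2.00, SE 0.13, adjusted p = 3.11e-06 and log2 fold change 1.77, SE 0.13, adjusted p = 3.38e-06), as did the receptor kinase Ddr2 (log2 fold change 1.49, SE 0.58, adjusted p = 0.0494 and log2 fold change 2.09, SE 0.58, adjusted p = 0.0108), and Itga10, which binds type II collagen in cartilage, fell (log2 fold change -1.90, SE 0.40, adjusted p = 0.0027 and log2 fold change -1.25, SE 0.39, adjusted p = 0.02).

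Partners of collagen in the matrix were also read from lists. Of 15 basement membrane partners, 8 rose and 2 fell in LATS1/2-KO at the adjusted p (7 and 2 by more than 2-fold), where 28.7% of all genes rose and 27.1% fell (17.1% and 17.5% by more than 2-fold). The laminin chain Lama4 had normalized counts of 224, 266.5 and 152 in the control libraries, 1929.6, 2097 and 1795 in those labelled LATS1/2-KO and 479, 809 and 944 in those labelled LATS1/2-Sox9-KO (log2 fold change 3.18, SE 0.28, adjusted p = 1.47e-05), and was the 1 gene of the list called between the 2 floxed genotypes (log2 fold change -1.38, SE 0.26, adjusted p = 0.018), where 1.55% of all genes were called higher and 2.16% lower. The laminin chains Lama2 (log2 fold change 3.51, SE 0.97, adjusted p = 0.0112) and Lamc3 (log2 fold change 2.87, SE 0.97, adjusted p = 0.0285) also rose in LATS1/2-KO. Lama1 fell (log2 fold change -3.33, SE 0.68, adjusted p = 0.00206), as did Lamb2 (log2 fold change -1.66, SE 0.20, adjusted p = 8.93e-05). Of 10 fibril partners, 7 were called higher and 1, Fmod, lower in LATS1/2-KO, and 7 higher and 0 lower in LATS1/2-Sox9-KO (0 lower also at an unadjusted p under 0.05 and by DESeq2), where 17.8% and 19.6% of all genes were. Fn1, the fibronectin on which type I fibrils assemble, had normalized counts of 274, 60.1 and 175.5 in the control libraries, 36146.5, 9159 and 12562 in those labelled LATS1/2-KO and 30299.5, 32896.5 and 41373 in those labelled LATS1/2-Sox9-KO (log2 fold change 6.83, SE 0.70, adjusted p = 3.08e-05 and log2 fold change 7.68, SE 0.72, adjusted p = 1.42e-05). Postn, periostin, had normalized counts of 259.8, 238 and 254 in the control libraries, 11099, 16150.5 and 6546.5 in those labelled LATS1/2-KO and 2388, 5830.2 and 5315 in those labelled LATS1/2-Sox9-KO (log2 fold change 5.49, SE 0.43, adjusted p = 7.30e-06 and log2 fold change 4.17, SE 0.41, adjusted p = 1.82e-05). All libraries of the floxed genotypes were above control for both genes. Tnc, tenascin C, rose as well (log2 fold change 4.06, SE 0.63, adjusted p = 0.000395 and log2 fold change 3.27, SE 0.61, adjusted p = 0.0011), and Fmod, fibromodulin, was lower in LATS1/2-KO (log2 fold change -3.26, SE 1.16, adjusted p = 0.0358).

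Markers of cells that the sort could also hold were summed in each library. Of 10 fibroblast markers, 3 rose and 1 fell in LATS1/2-KO, and 2 rose and 2 fell in LATS1/2-Sox9-KO at the adjusted p, where 28.7% and 27.1%, and 29.3% and 28.7%, of all genes did. The list summed to 21.2, 41.4 and 91.5 TPM in control, 29.5, 11.9 and 19.2 in LATS1/2-KO and 3.77, 6.69 and 13.2 in LATS1/2-Sox9-KO, with Dcn the most abundant in control and LATS1/2-KO. Pdgfra had normalized counts of 341, 418 and 299 in the control libraries, 368, 210.1 and 191.5 in those labelled LATS1/2-KO and 35.3, 65.8 and 162 in those labelled LATS1/2-Sox9-KO. The sum was highest in control replicate 3, and among the LATS1/2-KO libraries in replicate 1, which also had the highest Col1a1, Col1a2, Col3a1 and Col5a2. Within control and within LATS1/2-Sox9-KO the sum ranked the 3 libraries in the same order as each of these 4 genes. Within LATS1/2-KO it did so for Col1a1 and Col1a2, but not for Col3a1 and Col5a2. Col5a1 and Col5a3 were also highest among LATS1/2-KO libraries in replicate 1. Within control, however, both were highest in replicate 1, where the sum was lowest. The part of fibroblasts in the fibrillar results was not tested. Most of the control sum was Dcn, which fell in LATS1/2-Sox9-KO (log2 fold change -4.79, SE 0.95, adjusted p = 0.0016), while 7 of the 10 fibroblast markers had higher estimates there, with a median of 0.55 on the log2 scale. Thy1 rose there by 3.62 (adjusted p = 4.47e-05), and Mfap5 went from 2 counts over the control libraries to 181, a ratio per library size of 72.5 (95% counting interval 19.8 to 603).

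Adipocyte markers summed to 0.414, 0.287 and 0.579 TPM in control, 0.42, 35.7 and 20.3 in LATS1/2-KO and 0.536, 10.9 and 7.21 in LATS1/2-Sox9-KO, with Lep and Pck1 at 0 counts in all 3 control libraries. Of the 6, 5 rose in LATS1/2-KO (28.7% of all genes), carried by replicates 2 and 3. With the 4 libraries with such counts left out, 1 library remained for each floxed genotype, so the spread came from the control libraries alone and the single library was assumed to vary like them. In that fit 14 collagens were called higher and 3 lower in LATS1/2-KO, where 11.1% and 14.2% of all genes were, and 9 higher and 9 lower in LATS1/2-Sox9-KO, where 13.4% and 14.3% were. The floxed genotypes were not compared with each other in it. The increases that no longer passed were those of Col11a1 at 0.47 and Col4a1 at 1.52 in LATS1/2-KO, and in LATS1/2-Sox9-KO those of Col3a1 at 2.18 (adjusted p = 0.0706), Col15a1 at 1.31 (adjusted p = 0.119), Col4a2 at 1.42, Col5a2 at 1.6 and Col6a2 at 0.97. The decreases that no longer passed were those of Col6a3 in LATS1/2-KO, at -3.90 (adjusted p = 0.051), and in LATS1/2-Sox9-KO those of Col4a4 at -2.15 (adjusted p = 0.312), Col8a1 at -1.95 (adjusted p = 0.0563), Col23a1 at -2.32 (adjusted p = 0.0507) and Col28a1 at -2.84 (adjusted p = 0.0605). Among values that still passed, the increases in LATS1/2-KO were 2.93 for Col1a1, 3.30 for Col1a2, 4.14 for Col3a1, 2.84 for Col5a1, 4.41 for Col5a2, 3.13 for Col7a1 and 3.01 for Col15a1, each of these 7 larger than in the 9 libraries. The 1 LATS1/2-KO library left was replicate 1, the highest of its group for each of these 7, so the larger values follow from that choice. In LATS1/2-Sox9-KO Col1a2 was at 1.75, Col16a1 at -2.46 and Col8a2 at -1.76, all smaller in size, and Col6a3 at -6.02. Col4a3 passed in both genotypes (adjusted p = 0.0119 and 0.00741), and its fitted values, which rest on 2 control counts, were 5.84 and 6.47 beside 7.79 and 5.82 in the 9 libraries.

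The other marker lists are counted at the adjusted p, at which 28.7% of all genes rose and 27.1% fell in LATS1/2-KO, and 29.3% and 28.7% in LATS1/2-Sox9-KO. Endothelial markers summed to 32.4, 27.4 and 29.4 TPM in control, 10.3, 8.70 and 10.3 in LATS1/2-KO and 3.12, 8.19 and 9.89 in LATS1/2-Sox9-KO. Of the 8, 1 rose and 2 fell in LATS1/2-KO. Most of the control sum was Vwf, which fell by 4.99 on the log2 scale in LATS1/2-KO (adjusted p = 2.67e-05), while Pecam1 gave -0.26 (adjusted p = 0.682). Pericyte markers summed to 169.5, 161 and 131 TPM in control, 32.5, 12.8 and 25.7 in LATS1/2-KO and 20.9, 23.6 and 27.97 in LATS1/2-Sox9-KO, nearly all of it Notch3. Of 6, 4 were tested, and 1 rose and 2 fell in LATS1/2-KO, while Kcnj8 had at most 1 count in a control library. Immune markers summed to 25.4, 13.6 and 9.34 TPM in control, 95.3, 43.4 and 25.3 in LATS1/2-KO and 43.9, 43.8 and 70.9 in LATS1/2-Sox9-KO. Of 8, 6 were tested, and 2 rose in LATS1/2-KO and 3 in LATS1/2-Sox9-KO, with none lower. Csf1r was the most abundant of them in the floxed genotypes, the T cell gene Cd3e had 0 counts in all 9 libraries, and Ptprc had normalized counts of 40.6, 55.6 and 17.4 in the control libraries, 166.5, 34.7 and 10.9 in those labelled LATS1/2-KO and 84.5, 29.9 and 107.5 in those labelled LATS1/2-Sox9-KO.

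Myoepithelial markers summed to 95.8, 93.5 and 79.3 TPM in control, 9210.0, 5155 and 5098 in LATS1/2-KO and 3649.5, 7661 and 11282 in LATS1/2-Sox9-KO. Krt14 made up nearly all of this in the floxed genotypes (log2 fold change 8.04, SE 0.52, adjusted p = 3.12e-06), Acta2 rose (log2 fold change 3.72, SE 0.26, adjusted p = 3.88e-06), and Trp63 (log2 fold change -4.82, SE 0.71, adjusted p = 0.000291) and Myh11 (log2 fold change -2.22, SE 0.27, adjusted p = 9.56e-05) fell. Of the 8, 3 rose and 3 fell in LATS1/2-KO, where 28.7% and 27.1% of all genes did. In LATS1/2-Sox9-KO 3 of the 8 rose and 5 fell, where 29.3% and 28.7% of all genes did. Luminal markers summed to 27635, 28008 and 30345 TPM in control, 32458, 29912 and 30373 in LATS1/2-KO and 47498, 45075 and 42950.5 in LATS1/2-Sox9-KO, and Schwann cell markers, which include genes that luminal cells also express such as Sox10, to 106, 114 and 59.9 TPM in control, 68.05, 89.7 and 91.2 in LATS1/2-KO and 78.2, 77.4 and 76.9 in LATS1/2-Sox9-KO. In normalized counts the luminal sum was 972120, 938042 and 1063193 in control and 902989, 871949 and 869457 in LATS1/2-KO, lower without overlap. It was 1469462, 1359461 and 1278903 in LATS1/2-Sox9-KO. Of the 5 Schwann cell markers 3 fell in LATS1/2-KO. Of the 10 luminal markers 2 rose and 6 fell in LATS1/2-KO at the adjusted p, with Krt8 and Krt18 among those that rose. In LATS1/2-Sox9-KO, where the sum was higher, 2 of the 10 rose and 7 fell (29.3% and 28.7% of all genes). Their median there was -1.55 on the log2 scale. The part of these cell types in the collagen results was not tested.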

How the data were processed

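The authors deposited raw read counts per gene, made with STAR 2.6.0c on mm10 and featureCounts of Subread 1.6.2 with Ensembl release 100, after FastQC 0.11.7, as named in the submitters' processing notes and the study's methods. For the counting, the study's methods name proper pairs and 'same strand'. Whether the counts kept strands apart was not tested, so those of genes that overlap an antisense gene are uncertain. All 9 deposited count columns matched a sample, and 0 were left unused. Library depth bounds precision for low genes, and intervals on counts cover counting error only.

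Genes passing filterByExpr (19357) were fitted with edgeR 4.0.16 in R 4.3.3, with TMM normalization, 3 group means, all 9 libraries and the quasi-likelihood test, and p-values were adjusted over all of them by Benjamini and Hochberg. Called genes had an adjusted p of at most 0.05 and more than a 2-fold change. The standard error is the log2 fold change divided by the square root of F. Collagens with a group mean of at least 100 normalized counts were given by library. Of other lists, at most 3 called genes per direction were named, by size of change, beside the targeted genes and cell markers. The collagens and lists were chosen with earlier results of these data known. TPM used exon lengths of GENCODE M21, and glycine runs its coding sequences (longest open reading frame). Start windows came from RefSeq on GRCm38.p6.

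The fit was tested on simulated counts for LATS1/2-KO against control, of 18840 genes. It recovered 200 of 200 changed genes in the right direction and called 1 of 18640 unchanged ones. The simulation gave every gene a dispersion of 0.04, used a fixed size of change and changed only genes above a set abundance. Real libraries of a group could spread more, as for Col6a3 in control, so these rates do not carry over to the calls given here. Alternatives were DESeq2 1.42.0, RLE size factors in edgeR, no filter or a stricter one of 10 counts, GC offsets, the 2 compared groups alone, glmTreat, the replicate number as a block, TPM by longest transcript, and leaving out 1 library at a time. A fit without libraries holding adipocyte markers was added after seeing the data, for the comparisons with control.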

Additional observations from a re-analysis of the deposited data

How the results depend on the processing

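Of the fitted values of single collagens under the planned settings other than leaving out 1 library, 787 kept their direction and side of the threshold, 24 lost it, 12 gained it and 4 reversed. With 1 library left out these numbers were 551, 35, 10 and 34. GC offsets moved several values of LATS1/2-Sox9-KO against control that stayed past the threshold. Increases grew to 2.18 for Col18a1, 3.31 for Col4a2, 2.7 for Col7a1 and 4.2 for Col5a3. Decreases shrank to -2.08 for Col11a2, -2.66 for Col16a1 and -3.07 for Col9a2. With the libraries holding adipocyte markers left out, a choice made after seeing the data, 36 of the values called against control stayed past the threshold and 12 did not. Between the 2 floxed genotypes, the 6 collagens called lower were 12 by DESeq2, 3 with the 2 groups alone, 0 by glmTreat, and ranged from 0 to 7 with 1 library left out. At the adjusted p alone, the 7 were 13, 4 and 0 under the same settings and ranged from 0 to 8. The 0 called higher ranged from 0 to 1. In that fit the 14 collagens called higher in LATS1/2-Sox9-KO against control were 9 under both call rules, with 1 library left in each floxed group and the spread taken from the controls. The 5 that fell in LATS1/2-KO at the adjusted p ranged from 5 to 8 with 1 library left out. Measured against the longest transcript, the summed TPM of basement membrane collagens was 127.9 in control, 144.5 in LATS1/2-KO and 88.4 in LATS1/2-Sox9-KO, where exon lengths gave 147.8, 170.7 and 104.9. The cause of these shifts was not tested.

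No reversed value had passed the test in its own comparison, though some of these genes did in another. GC offsets gave 0.31 for Col17a1 in LATS1/2-KO against control and 0.12 for Col6a1 in LATS1/2-Sox9-KO against control, and Col4a5 was at 0.01 between the floxed genotypes both without a filter and with the replicate block. With 1 library left out some crossed 0. In LATS1/2-Sox9-KO against LATS1/2-KO the log2 ranges were Col15a1 from -1.0 to 0.05, Col1a2 from -0.11 to 1.29, Col25a1 from -0.72 to 0.50, Col2a1 from -0.70 to 0.00, Col3a1 from -0.65 to 0.95, Col4a5 from -0.21 to 0.33, Col5a2 from -1.0 to 0.18, Col5a3 from -0.06 to 0.31, Col6a2 from -0.64 to 0.34, Col6a3 from -0.51 to 0.76 and Col7a1 from -0.69 to 0.19. In LATS1/2-Sox9-KO against control the log2 ranges were Col2a1 from -0.09 to 0.58 and Col6a1 from -0.89 to 0.15. In LATS1/2-KO against control the log2 ranges were Col17a1 from -0.54 to 0.21, Col4a4 from -1.14 to 0.81, Col4a5 from -0.50 to 0.05, Col6a1 from -0.25 to 0.74, Col8a1 from -0.68 to 0.01 and Col8a2 from -0.50 to 0.39.

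Replicate numbers are shared across groups, and same-numbered libraries had correlations of their deviations from -0.066 to 0.17 in 9 pairs, 2 of them over 0.1, so they were not taken as pairs. With the replicate block the collagens called lower between the floxed genotypes went from 6 to 4, Col18a1 at -1.03 (adjusted p = 0.0513) and Col27a1 at -1.52 (adjusted p = 0.0862) missing the threshold. Col4a4 in LATS1/2-Sox9-KO against control missed it at -1.72 (adjusted p = 0.0718). Col12a1 between the floxed genotypes, at -0.47 (adjusted p = 0.0392), and Col14a1 in LATS1/2-Sox9-KO against control, at -1.14 (adjusted p = 0.0363), passed it. The block changed no other collagen call.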
